A study of Mus musculus with 16 samples.

Results

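The genes described are 34 genes of the p53 pathway, p53 itself (Trp53), 3 of its regulators and 30 of the genes it is known to switch on, found by symbol among 55291 genes of the count table. All 34 reached the minimum count and were tested with 22749 genes. RNA was sequenced from LSK cells (lineage-negative, c-Kit-positive and Sca-1-positive bone marrow cells, enriched with beads) of 16 C57BL/6 mice, with 1 library per mouse and 4 mice in each of 4 genotypes. WT mice carried neither mutation. Asxl1Tg mice carried the transgene Asxl1Y588XTg, which encodes altered Asxl1, a chromatin protein, and the promoter that drives it is not given in the sources used here. Srsf2P95H mice (Srsf2P95H/+) carried a point mutation in 1 copy of the gene for the splicing factor Srsf2, and DM mice (Asxl1Y588XTg;Srsf2P95H/+) carried both. No treatment, age, sex or batch is given, and the design text names 3 DM samples where the table holds 4, all of which were used. Libraries came from individual mice, so the SDs below measure the spread between mice of a genotype. The standard errors give the precision of a log2 fold change, from a spread estimated over all 4 genotypes.

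p53 is a transcription factor that is kept scarce by Mdm2, an enzyme that marks it for destruction, and is held in check by the related protein Mdm4. DNA damage or other stress frees it, and it then raises genes for cell cycle arrest, cell death, DNA repair and metabolic control, together with Mdm2, which closes a feedback loop. In haematopoietic stem cells p53 is known to keep cells quiescent and to remove damaged cells. p53 is controlled largely at the protein level, which RNA counts do not measure.

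Total counts per library ran from 82991487 to 127596225. All 10 genes of the LSK list, among them Kit and Ly6a, were detected in every group. WT 4 stood apart, with the highest summed level of 10 B lineage genes (141 CPM, where WT 1 to 3 had 31.3 to 54.6) and of a list of 9 eosinophil genes (1580 CPM), and with the lowest sum of 16 immediate-early genes (707 CPM). The highest sum of immediate-early genes, which rise within minutes of handling or stimulation, was in Srsf2P95H 2 (13495 CPM). CPM here are counts scaled to a common library total with TMM factors, and libraries are named by genotype and replicate number. Xist, which is transcribed from the inactive X, exceeded 100 CPM in 5 libraries (WT 1, Asxl1Tg 3, Srsf2P95H 2, Srsf2P95H 3 and DM 1). In such bulk samples, fewer cells of a type and less RNA per cell cannot be told apart.

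Eda2r, Ccng1 and Zmat3 were higher with the Srsf2 mutation on average over both Asxl1 backgrounds. In Srsf2P95H versus WT the main edgeR fit called only Eda2r among the members. Mdm2, Cdkn1a, Bbc3 and most other p53 targets passed the test in no comparison. Averaged over both Asxl1 backgrounds (8 Srsf2-mutant against 8 other libraries), 6 of 34 members rose and none fell. Across all genes tested, 10.6% were called in that comparison, 6.57% higher and 4.07% lower. The risen members were Eda2r (log2 fold change 1.58, standard error (SE) 0.19), Phlda3 (0.73, SE 0.19), Zmat3 (0.52, SE 0.10), Ccng1 (0.43, SE 0.06), Ckap2 (0.27, SE 0.07) and Ei24 (0.19, SE 0.04). Calls rest on an adjusted p under 0.05 from edgeR's quasi-likelihood test with Benjamini-Hochberg adjustment over all genes tested. The median of the 34 log2 fold changes was 0.10, against -0.02 over all genes, and 28 members were not called. Scaling by library size alone moved the median of all genes by -0.090 and the members' median to 0.01. Without Srsf2P95H 1 the count of risen members was 3.

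Marker genes of other cell types were also examined in this average Srsf2P95H effect. Of all genes, 10.6% were called there and 29.1% had an unadjusted p under 0.05. Of 9 monocyte-macrophage genes none was called, but 7 had an unadjusted p under 0.05, 4 log2 fold changes being above and 5 below 0 with a median of -1.26. Their summed level was 42.7 to 253 CPM in WT, 178 to 298 in Asxl1Tg, 174 to 298 in Srsf2P95H and 178 to 239.8 in DM. Of 9 tested T and NK cell genes 1 was called higher and 2 lower (median -0.54), and the list summed to 105 to 148 CPM in WT, 107 to 139 in Asxl1Tg, 125 to 149.6 in Srsf2P95H and 113 to 182 in DM. B lineage and eosinophil genes had medians of -0.84 and -0.89 with no call, and 1 gene of each list had an unadjusted p under 0.05. Of 9 neutrophil genes 1 was called higher and none lower (median 0.46). The part of these cells in the members' levels was not tested.

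The other comparisons gave fewer calls among the members. In DM versus WT 5 of 34 rose and none fell (9.39% of all genes called, 4.65% higher and 4.73% lower). In DM versus Asxl1Tg 3 rose and none fell (1.08% called, 0.848% higher and 0.229% lower), and in Srsf2P95H versus WT 1 rose and none fell (0.506% called, 0.264% higher and 0.242% lower). The Asxl1 transgene alone, Asxl1Tg versus WT, had 2 members called lower, Trp53inp1 and Sesn1, and none higher (1.88% called, 1.12% higher and 0.76% lower). Members called higher appeared in alternatives: DESeq2 called 4 higher (Aen, Pidd1, Pmaip1 and Tigar) beside 2 lower, the fit without WT 1 called 2 higher (Pmaip1 and Tigar) and 2 lower, and the fit without a filter called 1 higher (Tigar) and none lower. DM versus Srsf2P95H called no member (0.246% of all genes called, 0.215% higher and 0.0308% lower), and 1 had an unadjusted p under 0.05 (6.48% of all genes). The average effect of Asxl1Tg called no member either (1.85% called, 1.4% higher and 0.444% lower), and 5 had an unadjusted p under 0.05 (15.4%). DESeq2 called Zmat3 in each of these. These comparisons share libraries and are not independent of each other. Single libraries decided several of these counts. In DM versus WT the count was 3 without WT 2, WT 4, DM 1, DM 2 or DM 4, and in DM versus Asxl1Tg it was 0 without Asxl1Tg 1 or DM 2 and 1 without Asxl1Tg 4. In Srsf2P95H versus WT it was 4 without WT 1, Asxl1Tg 2 or Srsf2P95H 2, and 0 without any of 6 other libraries (WT 2, 3 or 4, Srsf2P95H 1, 3 or 4). In Asxl1Tg versus WT it was 5 without Asxl1Tg 2, 4 without WT 1, 0 without WT 2, WT 3, WT 4, Asxl1Tg 1 or Asxl1Tg 4, and 1 without Asxl1Tg 3, Srsf2P95H 4 or any 1 DM library. The average Asxl1Tg effect called 2 without Asxl1Tg 2.

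Before adjustment, a p under 0.05 was reached by 11 members in Asxl1Tg versus WT (21.5% of all genes), 14 in Srsf2P95H versus WT (25.3%), 12 in DM versus WT (30.6%), 10 in DM versus Asxl1Tg (17.8%) and 9 in the average Srsf2P95H effect (29.1%). As a share of the 34 these were 32.4%, 41.2%, 35.3%, 29.4% and 26.5%. The libraries of the groups compared did not overlap for 6 members in Asxl1Tg versus WT (8.98% of all genes), 7 in Srsf2P95H versus WT (13.7%) and 10 in DM versus WT (18.6%). The count was 7 in DM versus Asxl1Tg (11.5%), 1 in DM versus Srsf2P95H (4.28%), 0 in the average Asxl1Tg effect (0.532%) and 2, Eda2r and Ccng1, in the average Srsf2P95H effect (1.05%).

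**Figure D1:**
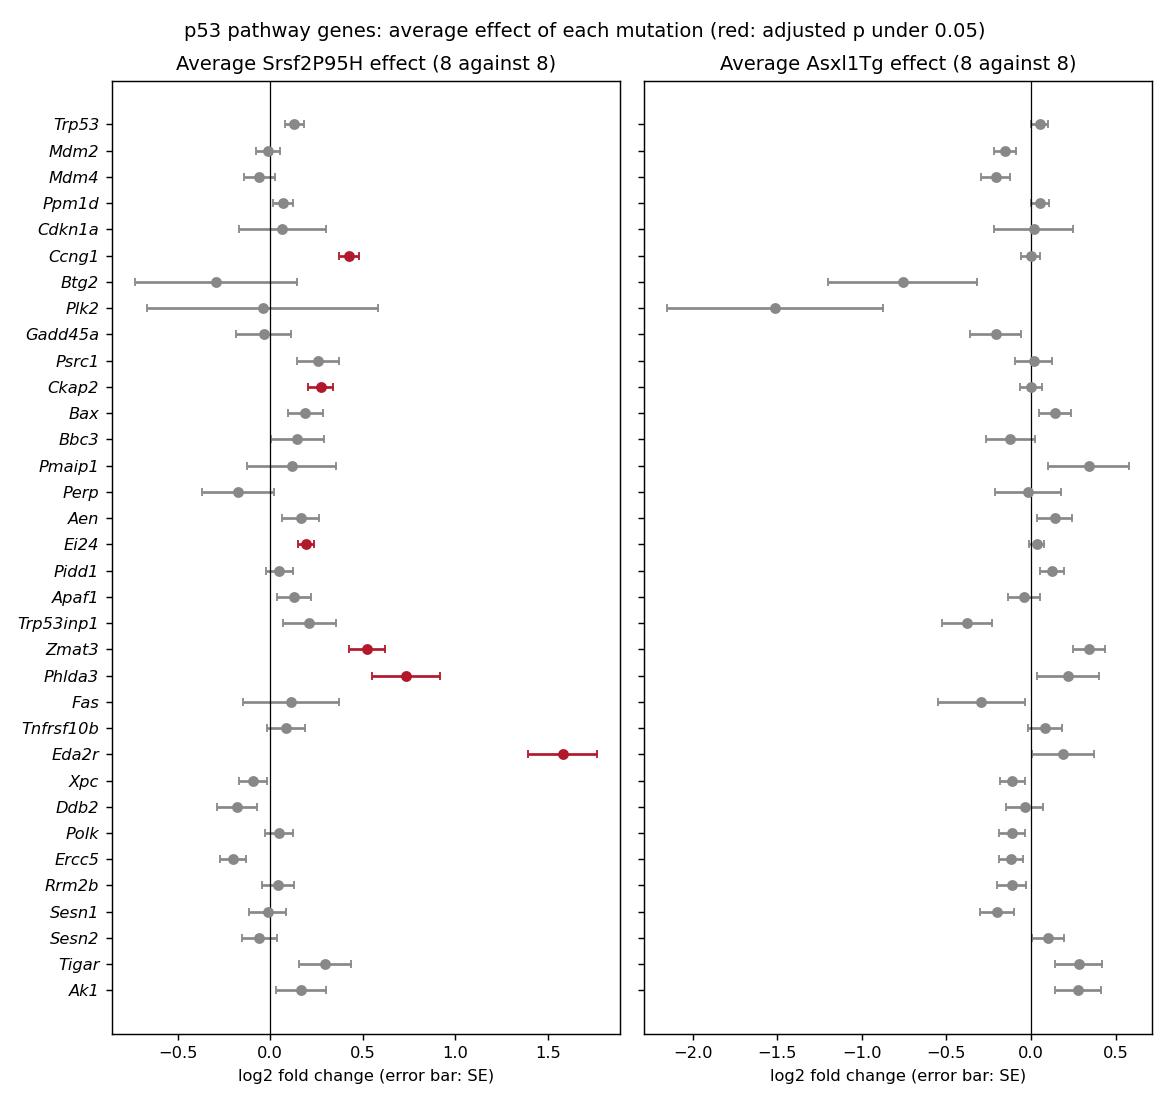
Log2 fold change (x axis, error bar SE) of each of the 34 genes, ordered by role, for the average effect of Srsf2P95H (left) and of Asxl1Tg (right), each 8 against 8 libraries. The 6 red points on the left, led by Eda2r at 1.58, passed an adjusted p of 0.05, and no point on the right did.

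Levels of the members differed widely. Per kilobase of exon, the mean over all libraries was highest for Trp53 (63.7 CPM per kb), followed by Btg2 (34.96) and Ccng1 (25.4). The lowest were the receptors Fas (0.329 CPM per kb) and Eda2r (0.319). Between mice of the same genotype, Ei24 and Trp53 varied least, with a within-group SD of log2 CPM of 0.072 and 0.090, and Plk2 (1.32) and Btg2 (0.85) varied most.

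Among the regulators no gene passed edgeR's test in any of the 8 comparisons with all libraries. Trp53 (chromosome 11, 69580359–69591873, GRCm38) was at 234, 251, 242 and 209.7 CPM in WT 1 to 4 and at 260.0, 235, 271 and 268 CPM in Asxl1Tg, with libraries given in the order of their replicate numbers from here on. It was at 271, 274, 276 and 269 CPM in Srsf2P95H and at 279, 264, 241 and 280.1 CPM in DM. All 4 Srsf2P95H libraries lay above all 4 WT libraries, but the other mutant groups overlapped WT, and the log2 fold change in Srsf2P95H was 0.22 (SE 0.07, adjusted p = 0.0815), which DESeq2 called (adjusted p = 0.0320). Without DM 3, edgeR called Trp53 higher in the average Srsf2P95H effect (log2 0.15, adjusted p = 0.0498).

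Mdm2 (chromosome 10, 117688875–117710758) was at 55.0, 58.2, 60.4 and 60.5 CPM in WT and at 54.5, 56.9, 49.6 and 40.02 CPM in Asxl1Tg. Its levels were 53.2, 61.7, 53.3 and 53.3 CPM in Srsf2P95H and 52.1, 54.2, 48.3 and 54.0 CPM in DM. No mutant group had a higher mean than WT, and all 4 DM libraries were below all 4 WT libraries. The log2 fold change in DM versus WT was -0.17 (SE 0.09, adjusted p = 0.229). Mdm2 therefore passed the test in neither of the genotypes in which Eda2r was called. Mdm4 averaged 142 ± 12.4 CPM in WT and 118 ± 13.4 in DM (SD, n = 4), with adjusted p = 0.136 for the difference. Without Asxl1Tg 2, edgeR called Mdm4 lower in Asxl1Tg versus WT (log2 -0.36, adjusted p = 0.0406) and in the average Asxl1Tg effect (-0.27, adjusted p = 0.0494). Ppm1d, a phosphatase that reverses p53 phosphorylation, averaged 36.5 ± 3.09 CPM in WT and 39.8 ± 1.49 in DM.

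**Figure D2:**
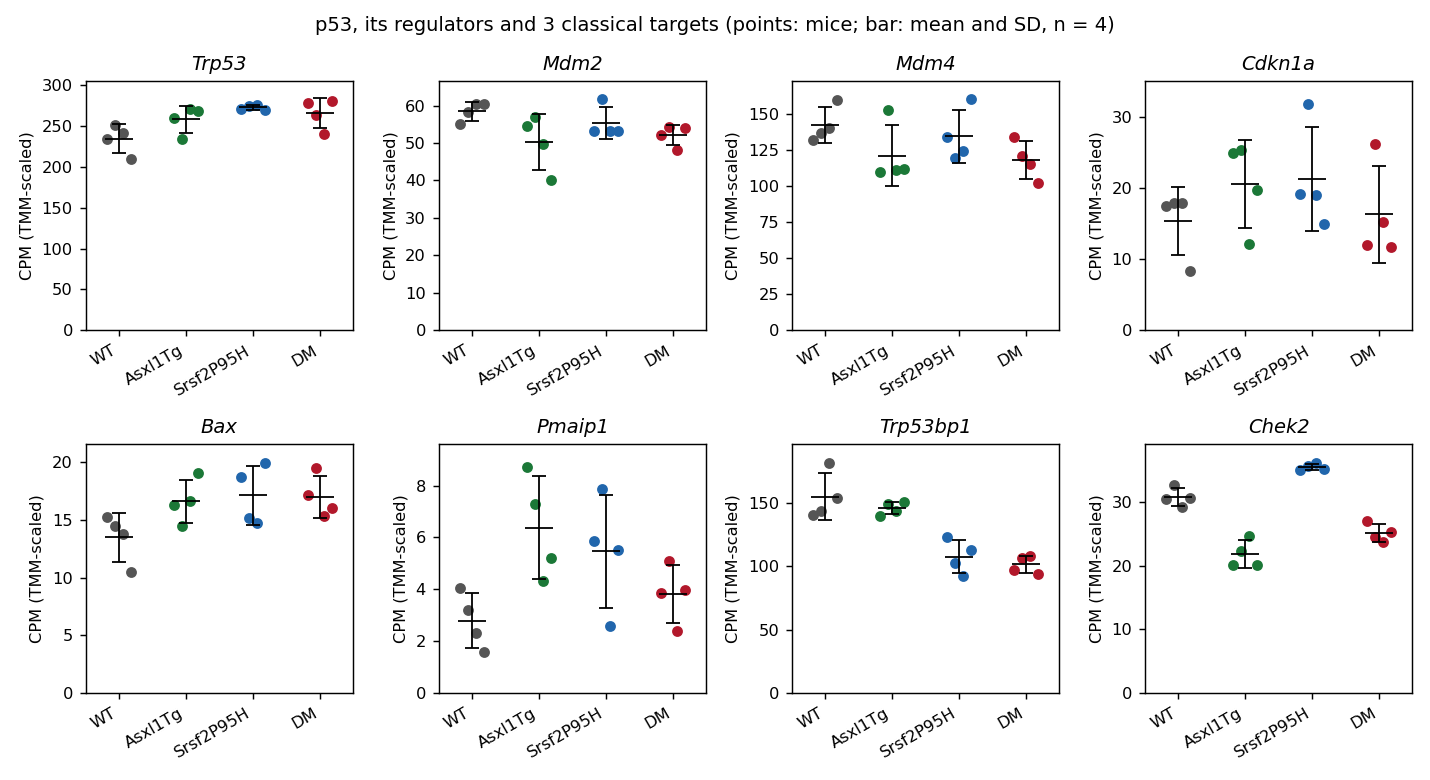
CPM (y axis from 0) of Trp53, Mdm2, Mdm4, Cdkn1a, Bax and Pmaip1 and of the p53-associated genes Trp53bp1 and Chek2 in each of 16 mice, by genotype, with mean and SD (n = 4). Trp53bp1 separates the Srsf2-mutant libraries from the others and Chek2 is lowest in the groups with the Asxl1 transgene, while Mdm2 overlaps between most groups.

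Of the 7 genes that act on the cell cycle, Ccng1 and Ckap2 rose in the average Srsf2P95H effect and the other 5 were not called. Cdkn1a (chromosome 17, 29090976–29100727), the inhibitor of cyclin-dependent kinases through which p53 arrests cells, was at 17.5, 17.9, 17.9 and 8.26 CPM in WT and 25.0, 25.3, 12.1 and 19.7 CPM in Asxl1Tg. In Srsf2P95H it was at 19.2, 31.8, 19.0 and 14.9 CPM and in DM at 12.0, 26.2, 15.2 and 11.7 CPM. Every pair of groups overlapped, with the lowest library in WT (WT 4) and the highest in Srsf2P95H (Srsf2P95H 2). The average Srsf2P95H effect on Cdkn1a was 0.07 (SE 0.24, adjusted p = 0.883). In the annotation 7.68% of its exon bases are shared with a gene on the other strand, and the strand setting of the counting is not given in the sources used here.

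Ccng1 (chromosome 11, 40748552–40755311), which encodes cyclin G1, a partner of a phosphatase that acts on Mdm2, was at 74.7, 82.1, 83.5 and 76.2 CPM in WT and 71.3, 71.1, 76.8 and 74.1 CPM in Asxl1Tg. It was at 117, 91.5, 91.0 and 95.1 CPM in Srsf2P95H and 107, 115, 102 and 100.1 CPM in DM. All 8 Srsf2-mutant libraries were above all 8 others, a separation that 1.05% of all genes tested showed in either direction. The rise was 1.34-fold in DM versus WT (log2 0.42, SE 0.08, adjusted p = 0.00663) and 1.45-fold in DM versus Asxl1Tg (log2 0.54, adjusted p = 0.00886). In Srsf2P95H versus WT the log2 fold change was 0.32, with an adjusted p of 0.0552, and 0.00989 in DESeq2. The call in DM versus WT and that of the average effect held in every alternative, whereas that in DM versus Asxl1Tg was lost without Asxl1Tg 1 or DM 2 (0.0538 to 0.0688).

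Ckap2 (chromosome 8, 22168160–22185819), a protein of the mitotic spindle, was at 41.7, 39.7, 38.2 and 39.3 CPM in WT and 42.8, 34.1, 42.8 and 38.0 CPM in Asxl1Tg. Srsf2P95H libraries were at 50.3, 44.8, 50.8 and 44.3 CPM and DM libraries at 53.6, 46.5, 39.9 and 52.0 CPM. The Srsf2P95H libraries were all above the WT and Asxl1Tg libraries, and DM 3 overlapped both. The average Srsf2P95H effect was 0.27 (SE 0.07, adjusted p = 0.0207), and the call was lost without Srsf2P95H 1, DM 1 or DM 4 (0.0541 to 0.0588). In the same comparison 5 of 16 mitosis genes were called higher and none lower, where 6.57% and 4.07% of all genes were (median 0.26 on the log2 scale), and the part of cell proliferation in the level of Ckap2 was not tested. Psrc1, another spindle protein, was not called (average Srsf2P95H effect 0.26, adjusted p = 0.134), nor was Gadd45a, a stress sensor (-0.04, adjusted p = 0.901), which shares 19.1% of its exon bases with another gene.

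Btg2, an antiproliferative gene, and Plk2, a polo-like kinase, varied most between mice of a genotype. Plk2 was at 20.5, 35.1, 27.4 and 2.22 CPM in WT and 6.85, 89.8, 9.92 and 7.39 CPM in Srsf2P95H, a 40.5-fold range over the 16 libraries. Its lowest value was in WT 4 and its highest in Srsf2P95H 2, the libraries with the lowest and the highest immediate-early genes. Btg2 ran from 38.9 CPM in DM 1 to 279.8 CPM in Srsf2P95H 2. Neither was called with all libraries. Without WT 4 and Srsf2P95H 2, Plk2 was called lower in DM versus WT (log2 -1.93, adjusted p = 0.00575) and in Srsf2P95H versus WT (-1.78, adjusted p = 0.0383). With the level of the immediate-early genes as a covariate and all libraries kept, neither was called in any comparison. How much of the levels of Plk2 and Btg2 belongs to the immediate-early response was not tested.

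**Figure D3:**
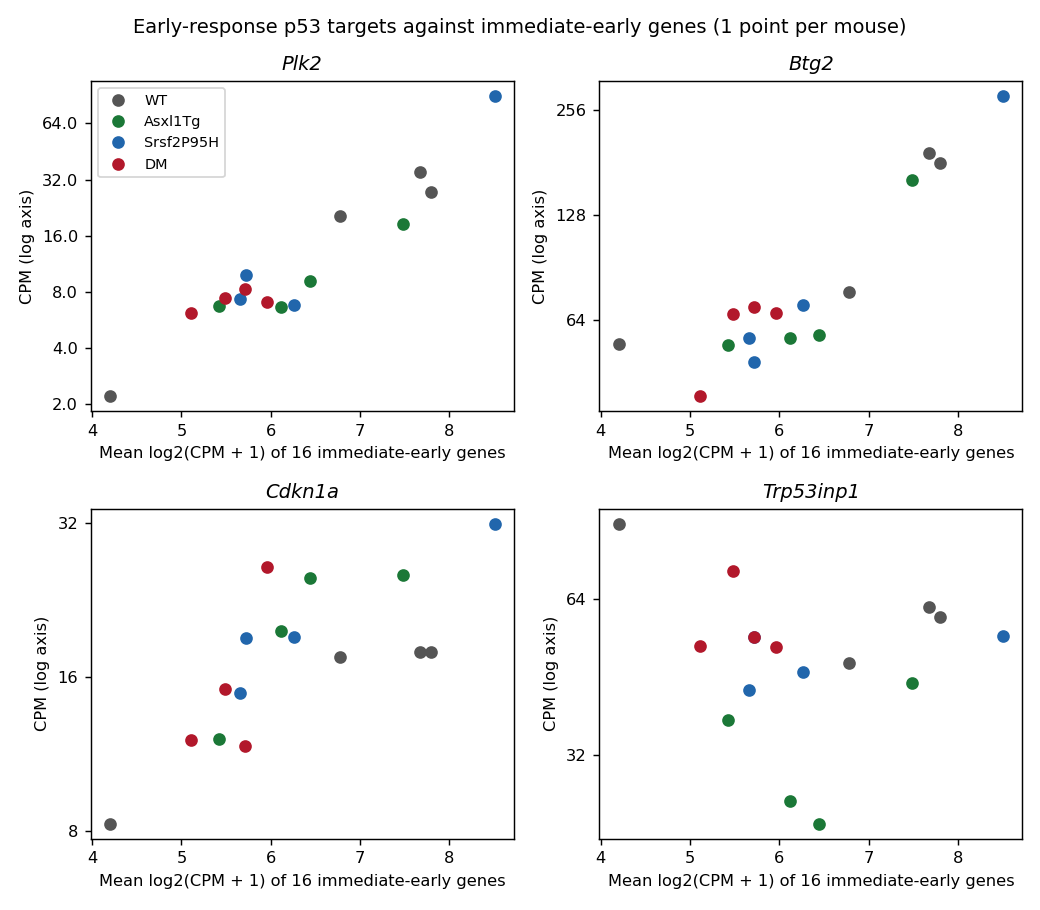
CPM (log axis) of Plk2, Btg2, Cdkn1a and Trp53inp1 against the mean log2(CPM + 1) of 16 immediate-early genes, 1 point per mouse, coloured by genotype. Plk2 and Btg2 are high in the libraries with high immediate-early genes, with Srsf2P95H 2 at the upper right of both panels, and the DM libraries lie between 5.11 and 5.96 on the x axis.

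Of the 11 genes tied to apoptosis, Zmat3, Phlda3 and Ei24 rose in the average Srsf2P95H effect and Trp53inp1 fell in Asxl1Tg. In the main edgeR fit the other 7 were not called in any comparison, and none of the 11 was called in Srsf2P95H versus WT. There DESeq2 called Aen (adjusted p = 0.0216) and Pmaip1 (0.0302) higher. In edgeR, Aen was called there without Asxl1Tg 2 (0.0429) or Srsf2P95H 2 (0.0349), and Pmaip1 with the replicate block (0.0424). Zmat3 (chromosome 3, 32334792–32366014), an RNA-binding zinc-finger protein, was at 11.4, 13.9, 14.1 and 10.9 CPM in WT and 11.9, 11.3, 16.9 and 14.3 CPM in Asxl1Tg. It was at 17.0, 14.0, 15.8 and 14.9 CPM in Srsf2P95H and 23.2, 27.1, 21.6 and 19.7 CPM in DM. The 4 DM libraries were above all 12 others, which overlapped among themselves. Zmat3 rose 1.82-fold in DM versus WT (log2 0.86, SE 0.14, adjusted p = 0.00259) and 1.68-fold in DM versus Asxl1Tg (adjusted p = 0.0195). In Srsf2P95H versus WT the log2 fold change was 0.29 (SE 0.14, adjusted p = 0.194). DM against Srsf2P95H gave 0.57 (adjusted p = 0.131), which DESeq2 called (adjusted p = 0.0137) as it did the average Asxl1Tg effect (0.35, adjusted p = 0.0203), and the interaction was 0.46 (SE 0.19, adjusted p = 0.397). A larger effect of Srsf2P95H in the presence of the transgene was therefore not shown. The call in DM versus WT held in every alternative, and that in DM versus Asxl1Tg was lost without Asxl1Tg 1, Asxl1Tg 4, DM 1 or DM 2 (0.0594 to 0.104).

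Phlda3 (chromosome 1, 135766119–135769136), a repressor of Akt signalling, was at 1.60, 2.69, 3.89 and 2.91 CPM in WT and 2.58, 2.81, 2.87 and 3.82 CPM in Asxl1Tg. Srsf2P95H libraries were at 5.38, 4.35, 2.73 and 4.79 CPM and DM libraries at 4.66, 7.36, 4.40 and 5.09 CPM. All DM libraries were above all WT and Asxl1Tg libraries, while Srsf2P95H 3 lay among them. Phlda3 rose 1.94-fold in DM versus WT (log2 0.95, SE 0.26, adjusted p = 0.0353), a call lost without WT 1, WT 2, WT 4, DM 1, DM 2 or DM 4 (0.0576 to 0.113). The average effect (adjusted p = 0.0237) was lost without Srsf2P95H 1 or DM 2 (0.0607 to 0.0619).

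Ei24 (chromosome 9, 36779159–36797393), a membrane protein of the endoplasmic reticulum, was at 62.3, 63.0, 61.5 and 60.9 CPM in WT and 61.2, 59.4, 63.6 and 64.3 CPM in Asxl1Tg. It was at 74.9, 63.5, 73.6 and 65.6 CPM in Srsf2P95H and 76.6, 70.9, 69.8 and 72.7 CPM in DM. DM and WT did not overlap, and Srsf2P95H 2 lay within the range of Asxl1Tg. Ei24 rose 1.17-fold in DM versus WT (log2 0.23, SE 0.06, adjusted p = 0.0333), and this was lost without WT 2, WT 3, WT 4, DM 1, DM 2 or DM 4 (0.0556 to 0.121). The average effect (adjusted p = 0.0146) was lost without Srsf2P95H 1 or DM 1 (0.0526 to 0.0566), and both were lost with scaling by library size alone (0.163 and 0.124). An antisense gene shares 6.66% of its exon bases.

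Trp53inp1 (chromosome 4, 11156431–11174379), a stress-induced cofactor of p53, was at 48.3, 61.7, 59.2 and 89.4 CPM in WT and 23.6, 44.1, 37.4 and 26.2 CPM in Asxl1Tg. It was at 46.4, 54.3, 54.1 and 42.9 CPM in Srsf2P95H and 52.0, 51.6, 72.5 and 54.1 CPM in DM. All Asxl1Tg libraries were below all WT and all DM libraries. Trp53inp1 fell by 0.98 on the log2 scale in Asxl1Tg versus WT (SE 0.21, adjusted p = 0.0292). The highest library was WT 4, which had the most B lineage and eosinophil RNA (141 and 1580 CPM summed), and the part of those cells in the difference was not tested. Without WT 4 the log2 fold change was -0.78 (adjusted p = 0.0856). The call did not hold when one of WT 2, WT 3, WT 4, Asxl1Tg 1 or Asxl1Tg 4 (0.0595 to 0.117) was left out.

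The pore former Bax and the Bcl-2-family killers Bbc3 and Pmaip1 were not called by the main edgeR fit. Bax averaged 13.5 ± 2.11 CPM in WT (SD, n = 4), while Asxl1Tg had 16.6 ± 1.89, Srsf2P95H 17.2 ± 2.55 and DM 17.0 ± 1.80, and all DM libraries were above all WT libraries (log2 0.33, adjusted p = 0.109). Of its exon bases 12.2% are shared with another gene on the same strand. Bbc3 averaged 11.6 ± 2.58 CPM in WT and 11.8 ± 2.59 in DM. Pmaip1 had the largest uncalled difference in Asxl1Tg, from 2.78 ± 1.07 CPM in WT to 6.38 ± 1.997 (log2 1.20, SE 0.34, adjusted p = 0.0752), with no overlap, and DESeq2 called it (adjusted p = 0.00818). Aen, a nuclease of apoptotic cells, averaged 37.7 ± 1.58 CPM in WT, while Asxl1Tg had 52.1 ± 9.33, Srsf2P95H 52.96 ± 12.1 and DM 46.6 ± 4.44. The lowest library of each mutant group exceeded the highest of WT, in Asxl1Tg narrowly (39.59 CPM in Asxl1Tg 2 against 39.54 in WT 2). In the main edgeR fit the smallest adjusted p was 0.0685 in Srsf2P95H. DESeq2 called Aen higher in Srsf2P95H versus WT (0.0216) and Asxl1Tg versus WT (0.0319). Without Asxl1Tg 2, edgeR also called it in Asxl1Tg versus WT (0.0196). Pidd1 (a scaffold of a caspase-activating complex), Apaf1 (the core of the apoptosome) and Perp (a membrane protein) were not called in the main fit. Their log2 fold changes in DM versus WT were 0.17, 0.09 and -0.19. DESeq2 called Pidd1 higher in Asxl1Tg versus WT (adjusted p = 0.0488).

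**Figure D4:**
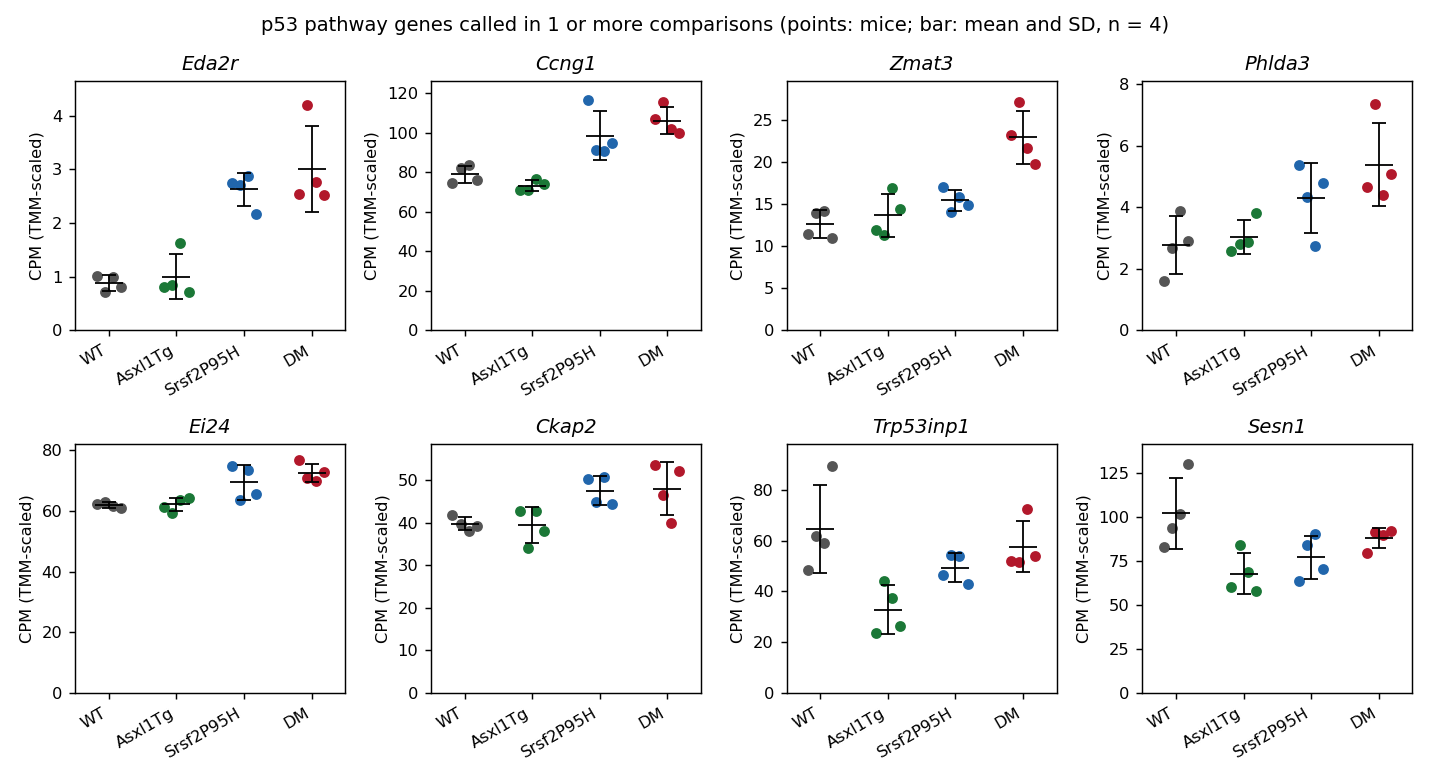
CPM (y axis from 0) in each mouse, by genotype, of the 8 genes called in 1 or more comparisons, with mean and SD (n = 4). Eda2r and Ccng1 separate all 8 Srsf2-mutant mice from the other 8, Zmat3 separates the DM mice from all others, and Trp53inp1 is lowest in Asxl1Tg.

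Of the 3 receptor genes, Eda2r rose with the Srsf2 mutation and had the largest called change of the members. Eda2r (chromosome X, 97333840–97377216), a receptor for a form of ectodysplasin, was at 1.02, 0.708, 0.995 and 0.815 CPM in WT and 0.806, 0.843, 1.63 and 0.720 CPM in Asxl1Tg. It was at 2.74, 2.71, 2.88 and 2.17 CPM in Srsf2P95H and 2.55, 4.20, 2.77 and 2.53 CPM in DM. The 8 Srsf2-mutant libraries were all above the 8 others, and the highest of the latter was Asxl1Tg 3. These levels rest on 59 to 461 counts per library.

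Eda2r rose 2.97-fold in Srsf2P95H versus WT (log2 1.57, SE 0.26, adjusted p = 0.0183). The rise was 3.40-fold in DM versus WT (log2 1.77, SE 0.27, adjusted p = 0.00183) and 3.01-fold in DM versus Asxl1Tg (adjusted p = 0.0121). The transgene alone gave 0.18 (SE 0.26, adjusted p = 0.738), and the interaction was 0.02 (SE 0.37, adjusted p = 0.992). Eda2r lies on the X chromosome. With the Xist class of each library as a covariate, the average Srsf2P95H effect was 1.57 on the log2 scale (adjusted p = 0.000365), close to 1.58 without it. The call in DM versus WT and the average effect held in every alternative. The call in Srsf2P95H versus WT did not hold when one of WT 2, WT 3, WT 4, Srsf2P95H 1, Srsf2P95H 3 or Srsf2P95H 4 (0.0508 to 0.0814) was left out, and that in DM versus Asxl1Tg did not hold without Asxl1Tg 1, Asxl1Tg 4 or DM 2 (0.0594 to 0.0727). Fas averaged 0.805 ± 0.385 CPM in WT and 0.709 ± 0.0743 in DM, and Tnfrsf10b, a receptor for the death ligand TRAIL, 8.61 ± 0.761 and 9.69 ± 0.801. Neither was called.

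The letters before the start sites of these genes were searched for the 10-base half-site of the p53 consensus, which is its own reverse complement and so covers both strands. RefSeq promoters (GRCm38.p6, 250 bases before the start) were found for 26 of the 34 members. A half-site was present in 12 of them (46.2%), against 2216 of 27025 genes (8.20%). A full site, 2 half-sites with a spacer of at most 13 bases, was present in 1 member (3.85%), Cdkn1a, against 18 of 27025 genes (0.0666%). Because the members were listed as known p53 pathway and target genes, the higher shares among them are not an independent result. p53 sites also lie in introns and farther upstream, which were not searched. Of the called members with an entry, Ccng1, Ckap2, Ei24 and Sesn1 held a half-site, and Eda2r and Phlda3 held none in this window. A match describes the letters and does not show binding. The following windows show 2 called genes, Ccng1 and Ckap2, beside the uncalled Cdkn1a, Mdm2 and Trp53 itself, with the half-sites in capitals, 5′ to 3′ on the strand of the gene.
Ccng1: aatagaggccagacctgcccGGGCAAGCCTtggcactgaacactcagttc
Ckap2: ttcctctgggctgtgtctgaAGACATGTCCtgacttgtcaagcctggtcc
Cdkn1a: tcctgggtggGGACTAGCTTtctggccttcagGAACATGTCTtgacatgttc
Mdm2: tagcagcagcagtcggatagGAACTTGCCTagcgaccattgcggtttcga
Trp53: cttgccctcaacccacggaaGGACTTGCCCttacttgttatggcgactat
The windows lie at chr11:40755442-40755491, minus strand for Ccng1, chr8:22185993-22186042, minus strand for Ckap2, chr17:29090896-29090947, plus strand for Cdkn1a, chr10:117710915-117710964, minus strand for Mdm2 and chr11:69580264-69580313, plus strand for Trp53, all outside annotated exons. The half-sites began 185, 203, 73, 186 and 75 bases before the start, in the same order, and the 2 half-sites of Cdkn1a were 12 bases apart. Cdkn1a, the gene with the full site, overlapped between all groups, and Ccng1, with 1 half-site, separated all Srsf2-mutant libraries from the others.

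The 5 DNA repair genes, Xpc and Ddb2 (sensors of damaged bases), Ercc5 (an excision nuclease), Polk (a translesion polymerase) and Rrm2b (a subunit of ribonucleotide reductase), were not called in any comparison by the main edgeR fit. All 5 log2 fold changes were below 0 in Asxl1Tg versus WT (median -0.25), Srsf2P95H versus WT (-0.22) and DM versus WT (-0.20). The medians in DM versus Asxl1Tg and DM versus Srsf2P95H were 0.07 and 0.02. Ercc5 came closest, from 18.7 ± 2.45 CPM in WT to 14.8 ± 0.870 in Srsf2P95H and 14.9 ± 0.462 in DM (SD, n = 4). Its log2 fold change in DM versus WT was -0.32 (SE 0.10, adjusted p = 0.0503). Ercc5 was called lower by DESeq2 in Srsf2P95H versus WT (adjusted p = 0.0129), DM versus WT (0.0105) and the average Srsf2P95H effect (0.0199). In edgeR without WT 1 it was called in the same comparisons (0.0209, 0.0145 and 0.0240). In DM versus WT it was also called with library size alone (0.0300) and with the replicate block (0.0456). Library size alone called it in the average Srsf2P95H effect as well (0.0318). That scaling moved the median of all genes by -0.099 in DM versus WT and by -0.090 in the average Srsf2P95H effect. Xpc was at 141 ± 16.9 CPM in WT and 117 ± 12.7 in Asxl1Tg, and Rrm2b at 16.9 ± 2.04 and 13.5 ± 0.451. For Ddb2, 23.8% of exon bases are shared with Acp2 on the other strand, and Rrm2b shares 8.04% with another gene.

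Of the 4 metabolic genes, Sesn1 fell in Asxl1Tg. Sesn1 (chromosome 10, 41809935–41908424), a stress-induced inhibitor of mTOR signalling, was at 82.8, 94.1, 102 and 130.1 CPM in WT and 60.1, 84.0, 68.8 and 58.2 CPM in Asxl1Tg. It was at 63.8, 83.9, 90.3 and 70.7 CPM in Srsf2P95H and 79.4, 91.3, 89.6 and 92.1 CPM in DM. Asxl1Tg and WT overlapped through Asxl1Tg 2, and WT 4, with the most B lineage and eosinophil RNA, was again the highest library. Sesn1 fell by 0.59 on the log2 scale in Asxl1Tg versus WT (SE 0.14, adjusted p = 0.0427). The call was lost in 15 of 25 alternatives, among them those without WT 2, WT 3, WT 4, Asxl1Tg 1, Asxl1Tg 3, Asxl1Tg 4, Srsf2P95H 4, DM 1, DM 2, DM 3 or DM 4 (0.0525 to 0.155). Without WT 4 the log2 fold change was -0.45. Tigar, a phosphatase that slows glycolysis, was not called by the main edgeR fit. Its mean was 7.72 ± 1.09 CPM in WT, while Asxl1Tg had 13.4 ± 4.11, Srsf2P95H 13.5 ± 2.66 and DM 11.5 ± 1.76. Its adjusted p was 0.0514 in Asxl1Tg versus WT and 0.0554 in Srsf2P95H versus WT, and DESeq2 called it higher in both (0.00375 and 0.00417). In DM versus WT DESeq2 called it higher too (0.0326). There edgeR did so with the replicate block, only the groups compared, or without Asxl1Tg 2 or DM 3 (0.0365 to 0.0493). In Asxl1Tg versus WT edgeR called it with DESeq2's size factors, no filter, the replicate block, or without WT 1 or Asxl1Tg 2 (0.0131 to 0.0495). In Srsf2P95H versus WT the replicate block called it, as did the fits without WT 1, Asxl1Tg 2 or Srsf2P95H 2 (0.0269 to 0.0384). Neither Sesn2 nor Ak1 (adenylate kinase) was called, with 0.04 and 0.44 on the log2 scale in DM versus WT.

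Whether the mutations together act differently from their sum was tested by the interaction, DM minus Asxl1Tg minus Srsf2P95H plus WT on the log2 scale. No member was called, as was no gene at all (0% of 22749), at unadjusted p under 0.05 in 9 members and in 11.7% of all genes. DESeq2 called 1 member, Trp53inp1. Pmaip1 (-1.71, SE 0.48), Tigar (-1.02, SE 0.28) and Aen (-0.65, SE 0.20) had values below 0, with each single mutant above WT and DM closer to it. Trp53inp1 (1.20, SE 0.29) and Sesn1 (0.78, SE 0.20) had values above 0, with Asxl1Tg the lowest group. For each of these 5 genes the adjusted p was 0.378, and the median SE of the members was 0.20.

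**Figure D5:**
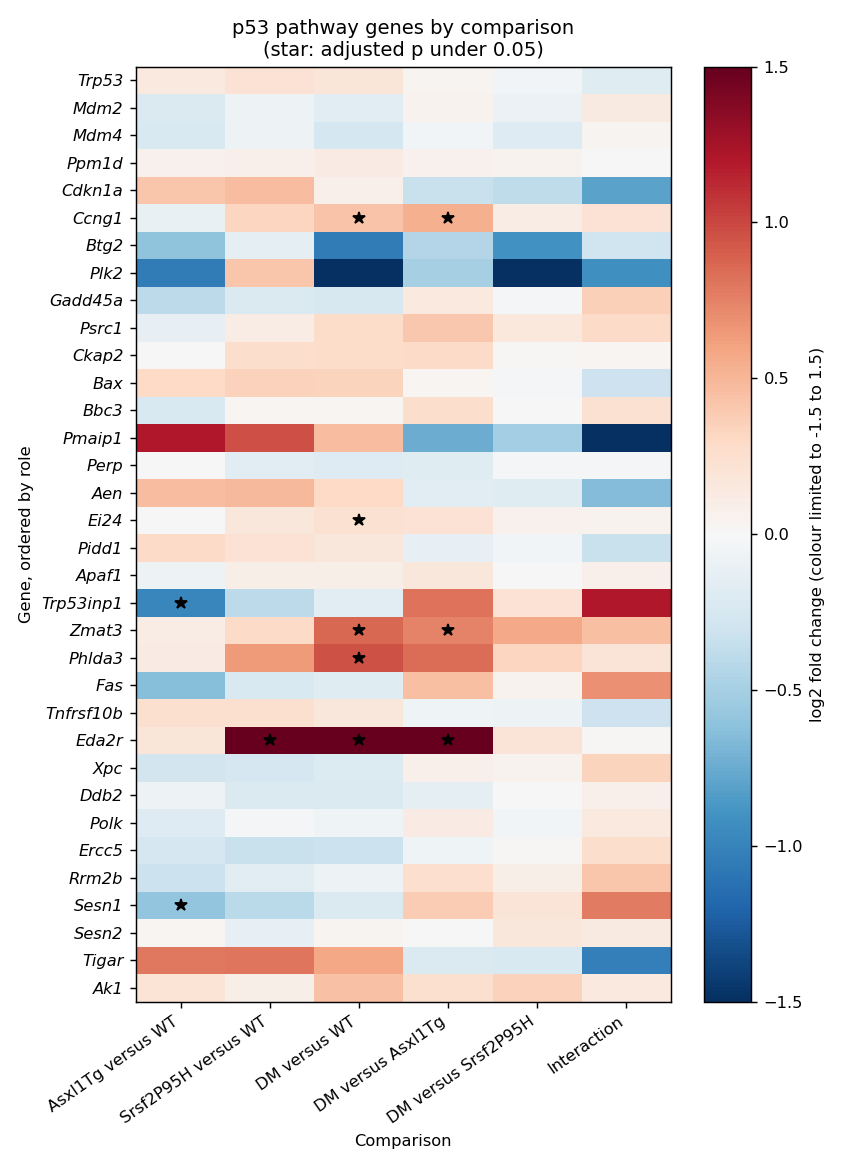
Log2 fold change (colour, limited to -1.5 to 1.5) of the 34 genes (rows, by role) in 5 comparisons between genotypes and in the interaction (columns), with a star for an adjusted p under 0.05. Stars stand in the rows of Eda2r, Zmat3, Ccng1, Phlda3, Ei24, Trp53inp1 and Sesn1, and the rows of Mdm2, Cdkn1a and Bax hold none.

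Genes that act on p53 were given by a list of 23, of which 20 were tested. With the average Srsf2P95H effect 5 were called higher and 2 lower (10.6% of all genes called), and with the average Asxl1Tg effect 1 lower (1.85% called). Trp53bp1, which binds p53 and marks DNA double-strand breaks, was at 140.3, 143, 181 and 154 CPM in WT and 139.9, 149, 144 and 151 CPM in Asxl1Tg. It was at 123, 102, 92.3 and 113 CPM in Srsf2P95H and 97.3, 106, 108 and 93.9 CPM in DM. All 8 Srsf2-mutant libraries were below the 8 others. Trp53bp1 was called lower in Srsf2P95H versus WT (-0.52, adjusted p = 0.0236), DM versus WT (-0.61, adjusted p = 0.00183) and DM versus Asxl1Tg (-0.52, adjusted p = 0.0148). The first was lost without WT 3, WT 4, Srsf2P95H 1, Srsf2P95H 3 or Srsf2P95H 4 (0.0591 to 0.0790) and where only the groups compared were fitted (0.113), and the last without Asxl1Tg 1, Asxl1Tg 4, DM 1, DM 2 or DM 4 (0.0564 to 0.0753). The average effect was -0.52 (SE 0.06, adjusted p = 0.000775) and held in every alternative. Also called on average were Trp53bp2, an apoptosis-stimulating partner of p53 (-0.27, adjusted p = 0.0146), and Chek2 (0.21, adjusted p = 0.0266). The call of Chek2 was lost with scaling by library size alone (0.198) and with no filter (0.0616). It was also lost without WT 3, Asxl1Tg 1, Srsf2P95H 1, Srsf2P95H 3, DM 1, DM 2 or DM 4 (0.0506 to 0.0759).

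Chek2, the kinase that phosphorylates p53 after DNA breaks, was lower with the Asxl1 transgene. It was at 30.4, 32.6, 29.3 and 30.7 CPM in WT and 20.05, 22.3, 24.7 and 20.1 CPM in Asxl1Tg, and at 35.1, 35.6, 36.1 and 35.1 CPM in Srsf2P95H and 27.0, 24.5, 23.6 and 25.3 CPM in DM. The transgene libraries were below their counterparts in both backgrounds without overlap. Chek2 fell by 0.50 on the log2 scale in Asxl1Tg versus WT (SE 0.08, adjusted p = 0.00351) and in DM versus Srsf2P95H (adjusted p = 0.00766). The first was lost where only the libraries compared were fitted (adjusted p = 0.0633). The average Asxl1Tg effect on Chek2 was -0.50 (adjusted p = 7.35e-05) and held in every alternative. In DM versus WT Chek2 was called lower (-0.29, adjusted p = 0.0284), and this was lost without WT 2, WT 3, WT 4, DM 2, DM 3 or DM 4 (0.0519 to 0.0790). No filter (0.0572) and leaving out both WT 4 and Srsf2P95H 2 (0.0513) ended it too.

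Of 30 further p53 targets 29 were tested. In DM versus WT 5 were higher and 1 lower (9.39% of all genes called), and in the average Srsf2P95H effect 4 higher and 2 lower (10.6% called, 6.57% higher and 4.07% lower). Rps27l, a ribosomal protein-like target, was at 81.7, 72.6, 63.5 and 49.9 CPM in WT and 115, 104, 88.9 and 105 CPM in DM, with no overlap. Its levels in Asxl1Tg, 99.7, 71.8, 89.2 and 89.8 CPM, overlapped both, and it was not called in DM versus Asxl1Tg. It rose by 0.62 in DM versus WT (SE 0.14, adjusted p = 0.0142) and by 0.45 on average (adjusted p = 0.0121), both in every alternative. In Srsf2P95H versus WT its log2 fold change was 0.66 (adjusted p = 0.0406), lost without WT 2, WT 3, WT 4, Asxl1Tg 3, Asxl1Tg 4, Srsf2P95H 1, Srsf2P95H 3, Srsf2P95H 4, DM 2 or DM 4 (0.0516 to 0.153). That call was also lost with the Xist covariate (0.0572) and with only the groups compared (0.115). Bloc1s2, a lysosome-positioning subunit, rose by 0.27 (adjusted p = 0.0124) and Bid, a killer cleaved by caspases, by 0.21 (adjusted p = 0.0251) on average, and Bid was lost without WT 3, Srsf2P95H 1, DM 1, DM 2 or DM 4 (0.0511 to 0.0658). Both were lost with scaling by library size alone (0.0540 for Bloc1s2 and 0.0940 for Bid). Trp53i13 fell by 0.32 on average (adjusted p = 0.0141). Epha2, a receptor tyrosine kinase, rose by 1.33 in DM versus WT (SE 0.36, adjusted p = 0.0317), lost without WT 1, WT 2, WT 3, DM 2 or DM 4 (0.0544 to 0.0986). Scaling by library size alone (0.0561) and fitting only the groups compared (0.0675) ended this call too. The level of Epha2 was 1.40 to 4.29 CPM in WT, 2.85 to 5.53 CPM in Asxl1Tg and 3.52 to 9.07 CPM in DM, with overlap between all 3.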

How the data were processed

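The deposited values were raw read counts per gene, which the authors made from paired-end RNA-seq of LSK cells. Per the submitters' processing notes, the tools were STAR 2.7.0e, HTSeq 0.11.2, Trimmomatic 0.38 and FastQC, with the mm10 build. The annotation release is not given in the sources used here, nor is the strand setting. A count that includes reads of an overlapping gene can therefore not be separated.

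Counts of 16 libraries were filtered with filterByExpr (minimum count 10, 22749 of 55291 genes kept), scaled with TMM and fitted in 1 model of 4 genotypes with edgeR 4.0.16 in R 4.3.3. The robust quasi-likelihood test with Benjamini-Hochberg adjustment over all genes tested gave the calls, at an adjusted p under 0.05. Simulated counts were used to test the steps. The alternatives were DESeq2 1.42.0, DESeq2's size factors in edgeR, library size alone, no filter, only the groups compared, a replicate block, Xist and immediate-early covariates, and leaving out libraries. Same-numbered libraries deviated with correlations of -0.293 to 0.295, and 3 of 16 correlated best with their own number, so they were not treated as pairs. Depth was 82991487 to 127596225 counts per library.

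The members and lists were chosen with earlier results of these data known. Library values are given for Trp53, Mdm2, Cdkn1a, Eda2r and every called member, and other lists give up to 4 called genes per comparison, smallest p first. One gene that this rule names is not reported here.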

Additional observations from a re-analysis of the deposited data

Results flagged for a closer look

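In 18 of 136 sets of 4 libraries (34 genes in 4 genotypes), 1 library lay far from the other 3, with a gap, relative to the set's range, above Dixon's critical value. For independent and normally distributed values, chance alone gives this in about 1 set in 20. The CPM were not log-transformed and the sets share the same 16 libraries, so that rate does not strictly apply.

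Among the regulators, Mdm2 was at 61.7 CPM in Srsf2P95H 2 (others 53.2 to 53.3), Mdm4 at 153 CPM in Asxl1Tg 2 (109 to 111) and Ppm1d at 31.9 CPM in WT 4 (37.6 to 38.4).

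Among the cell cycle genes, Cdkn1a was at 8.26 CPM in WT 4 (others 17.5 to 17.9) and Ccng1 at 117 CPM in Srsf2P95H 1 (91.0 to 95.1). Btg2 was high in Asxl1Tg 2 (161 CPM, others 54.3 to 58.1) and Srsf2P95H 2 (279.8 CPM, others 48.6 to 71.0), and low in DM 1 (38.9 CPM, others 66.8 to 70.0). Plk2 was at 89.8 CPM in Srsf2P95H 2 (6.85 to 9.92), and Psrc1 at 12.7 CPM in Asxl1Tg 4 (19.8 to 20.5).

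Among the apoptosis genes and receptors, Apaf1 was at 112 CPM in Asxl1Tg 2 (88.8 to 91.5) and 130.3 CPM in DM 4 (97.6 to 103), and Trp53inp1 at 72.5 CPM in DM 3 (51.6 to 54.1). Tnfrsf10b was at 9.75 CPM in WT 3 (8.14 to 8.34). Eda2r was high in Asxl1Tg 3 (1.63 CPM, others 0.720 to 0.843) and in DM 2 (4.20 CPM, others 2.53 to 2.77).

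Polk was at 17.2 CPM in DM 4 (others 15.5 to 15.7) and Ak1 at 9.39 CPM in Asxl1Tg 2 (5.97 to 6.36).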

How the results depend on the processing

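Of 17 calls of a member in a comparison, 6 held in every alternative tried (Eda2r, Ccng1 and Zmat3 in DM versus WT and in the average Srsf2P95H effect), and none changed direction. With 1 library left out, the members called ranged from 0 to 5 in Asxl1Tg versus WT, 0 to 4 in Srsf2P95H versus WT, 3 to 7 in DM versus WT, 0 to 4 in DM versus Asxl1Tg, 0 to 2 in the average Asxl1Tg effect and 3 to 7 in the average Srsf2P95H effect. In Asxl1Tg versus WT (2 called), 1 was called with library size alone, 1 without a filter, 0 without both WT 4 and Srsf2P95H 2, 0 with only the groups compared, and 6 by DESeq2. In Srsf2P95H versus WT (1 called), 2 were called without WT 4 and Srsf2P95H 2, 0 with only the groups compared and 8 by DESeq2. In DM versus Asxl1Tg (3 called), these settings called 5, 1 and 6. DESeq2 called 1 in DM versus Srsf2P95H, 1 in the average Asxl1Tg effect and 1 in the interaction (0 each in edgeR). With the replicate block, 4 members were called in Asxl1Tg versus WT (2 higher, Pmaip1 and Tigar, and 2 lower) and 4, all higher, in Srsf2P95H versus WT; the libraries share only a number (correlations -0.293 to 0.295, 3 of 16 best with their own). Member calls lost with only the groups compared were Eda2r in Srsf2P95H versus WT (adjusted p = 0.0895 in edgeR) and DM versus Asxl1Tg (0.0671), Zmat3 in DM versus Asxl1Tg (0.0692), Phlda3 in DM versus WT (0.0589), and Trp53inp1 (0.136) and Sesn1 (0.142) in Asxl1Tg versus WT. Library size alone ended Ckap2 in the average Srsf2P95H effect (0.0633), Phlda3 in DM versus WT (0.0572), Sesn1 (0.0640) and both calls of Ei24. No filter ended Trp53inp1 (0.0603), Sesn1 (0.0585) and Ei24 in DM versus WT (0.0621), where the immediate-early covariate did so too (0.0652). Without both WT 4 and Srsf2P95H 2, Trp53inp1 (0.0863), Sesn1 (0.11004) and Phlda3 in DM versus WT (0.0643) were lost. Over all genes, DESeq2 called 1872 against 428 in edgeR in Asxl1Tg versus WT, 2602 against 115 in Srsf2P95H versus WT, 3914 against 2135 in DM versus WT, 1168 against 245 in DM versus Asxl1Tg, 234 against 56 in DM versus Srsf2P95H, 1087 and 3813 against 420 and 2420 in the average Asxl1Tg and Srsf2P95H effects, and 52 against 0 in the interaction. In edgeR, the other alternatives gave 73 to 2330 genes in Asxl1Tg versus WT, 0 to 1638 in Srsf2P95H versus WT, 586 to 2660 in DM versus WT, 10 to 655 in DM versus Asxl1Tg, 20 to 81 in DM versus Srsf2P95H, 312 to 658 and 914 to 3015 in the average effects and 0 to 7 in the interaction. The cause of these differences was not tested. Low counts limit Eda2r, with 59 counts in its lowest library.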

Other observations

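Of 14 genes of the apoptosis machinery that are not counted among the p53 targets above, 2 were called in DM versus WT (9.39% of all genes called) and 2 in the average Srsf2P95H effect (10.6%), 1 in each direction, and none in the other 6 comparisons. Casp9, the caspase started by the apoptosome, was at 21.8, 23.4, 23.8 and 25.4 CPM in WT and 27.1, 30.7, 27.0 and 29.0 CPM in DM. It rose by 0.27 on the log2 scale in DM versus WT (SE 0.07, adjusted p = 0.0301 in edgeR's quasi-likelihood test), and the call was lost without WT 1, WT 2, WT 3, DM 1, DM 2 or DM 4 (0.0561 to 0.101) and with scaling by library size alone (0.188). No filter (0.0648) and only the groups compared (0.0689) ended it too. Its average Srsf2P95H effect (0.18, adjusted p = 0.0358) was lost without WT 1, WT 2, WT 3, Asxl1Tg 1, Asxl1Tg 3, Asxl1Tg 4, Srsf2P95H 1, Srsf2P95H 3, DM 1, DM 2 or DM 4 (0.0515 to 0.107). That call was also lost with scaling by library size alone (0.350), no filter (0.106) and the replicate block (0.0508).

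The killer proteins Bcl2l11 and Bmf were called lower, the first in DM versus WT and the second in the average Srsf2P95H effect. Bcl2l11 was at 34.9, 42.6, 46.5 and 30.5 CPM in WT and 27.4, 30.4, 31.4 and 27.9 CPM in DM, which overlapped through WT 4 and DM 3. The log2 fold change in DM versus WT was -0.40 (SE 0.12, adjusted p = 0.0477), lost without WT 2, WT 3, Asxl1Tg 3, Asxl1Tg 4, Srsf2P95H 1, Srsf2P95H 3, Srsf2P95H 4, DM 1, DM 2 or DM 4 (0.0547 to 0.138). With the immediate-early covariate it was -0.25 (adjusted p = 0.0835), and the call was also lost with no filter (0.0618) and with only the groups compared (0.0665). Bmf had an average Srsf2P95H effect of -0.81 (SE 0.24, adjusted p = 0.0440), lost without WT 2, WT 3, WT 4, Asxl1Tg 1, Asxl1Tg 2, Asxl1Tg 3, Asxl1Tg 4, Srsf2P95H 1, Srsf2P95H 3, Srsf2P95H 4, DM 1, DM 2 or DM 4 (0.0509 to 0.0893). Its level ran from 2.66 to 10.2 CPM in WT, and the highest Srsf2P95H library was at 2.86 CPM. DM libraries, at 1.55 to 4.74 CPM, overlapped Asxl1Tg libraries, at 2.77 to 4.30 CPM. The highest value of all was in WT 4, the library with the most B lineage RNA (141 CPM summed), and the part of those cells in the difference was not tested.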
